A study of Saccharomyces cerevisiae with 4 samples.

Results

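The transcripts described here encode 38 assembly factors of the small ribosomal subunit of the budding yeast Saccharomyces cerevisiae. They were taken by gene symbol from a list of factors of 18S rRNA processing and 40S subunit assembly, and all 38 were found on the array through their systematic names, among 6144 genes tested. Total RNA came from cells labelled BY4741, a laboratory strain derived from S288C, that carried an estradiol-controlled Msn2A6 gene. Msn2 is a zinc finger activator of the general stress response whose entry into the nucleus is held back by protein kinase A. The A6 allele is known as a form that escapes this kinase. Cultures of 50 ml grew in the rich glucose medium YPD at 30 °C. One group, Msn2A6_0min, held 2 untreated cultures in exponential phase, and the other, Msn2A6_90min, held 2 cultures harvested 90 min after 6 nM 17β-estradiol was added. Both groups carried the inducible gene, and no culture without it, or without estradiol at 90 min, was analysed here. Estradiol, Msn2A6 and 90 min of further growth therefore cannot be told apart. The protocols put the optical density at estradiol addition at 0.5 in one place and at about 1 in another.

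The small subunit processome is the large nucleolar particle that forms on the nascent rRNA precursor. Within it the U3 small nucleolar RNA (snoRNA) pairs with the precursor, the spacers around 18S rRNA are cut, and the particle then gives rise to a pre-40S subunit that matures on its way to the cytoplasm. Its factors are mostly essential in yeast. In growing yeast their genes belong to the ribosome biogenesis regulon, a gene group that is known to be transcribed strongly in rich medium and to be turned down in many stresses.

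Nearly all of these transcripts were lower 90 min after estradiol. Of 38 genes, 36 fell, 0 rose and 2, UTP22 and ENP1, did not pass the test (limma with Benjamini-Hochberg adjustment over all probes, adjusted p under 0.05). Across all genes tested, 46.2% fell and 30.3% rose by the same rule. The median log2 change of the 38 was -0.51, a 1.42-fold fall, against -0.13 for all genes. Single changes ran from -1.01 for RRP12 to -0.07 for UTP22. The falls were moderate in size. At least 1.5-fold lower were 13 of the 38, where 14.2% of all genes were, and only RRP12 was at least 2-fold lower, where 3.87% of all genes were. Ranked by change among the 6144 genes, from the most lowered upward, the 38 lay between percentiles 3.76 and 54.4, with a median of 19.2.

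Signals are given below as multiples of the array's 75th percentile, so that 1 is the signal at that percentile. A probe's signal depends on its sequence as well as on the transcript, so signals are compared between arrays and not between genes. All 38 probes were well above background on the 4 arrays, and for all 38 both arrays at 90 min lay below both arrays at 0 min. For UTP22 the nearest signals of the 2 groups were 1.070 and 1.067. The share of all genes separated in this way is not given here, and 46.2% of all genes were called lower. The median standard deviation of the 2 replicates was 0.06 on the log2 scale at 0 min and 0.05 at 90 min. Duplicate spots of 1 probe on 1 array differed by a median of 0.05 to 0.07 for these genes. Differences between members of the list were not tested. In bulk RNA, fewer cells with a transcript and less of it per cell cannot be told apart.

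**Figure D1:**
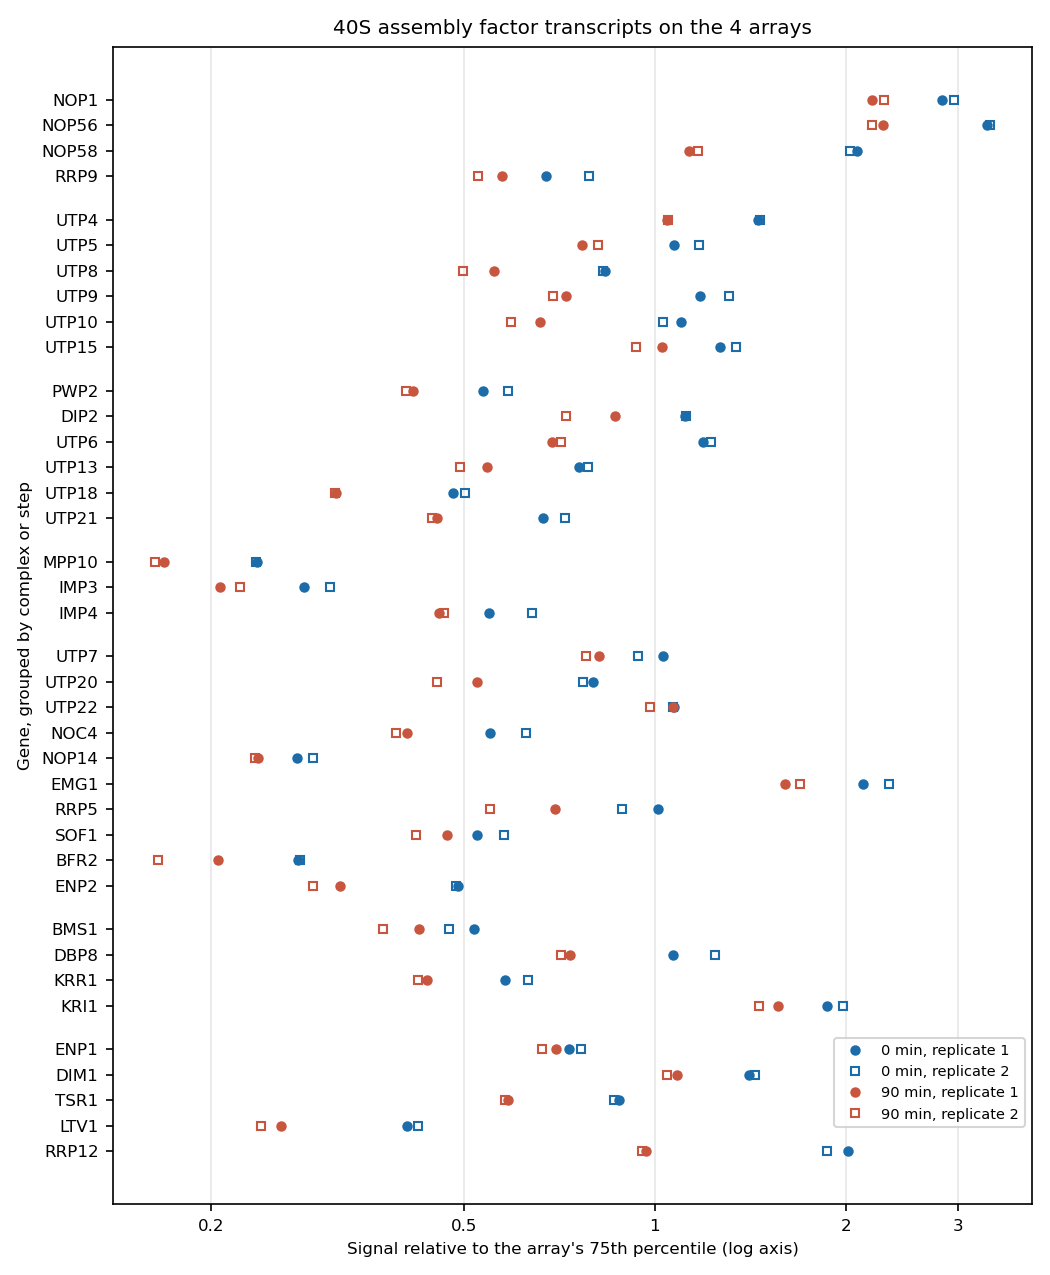
Signal of each of the 38 assembly factor transcripts on the 4 arrays, relative to the 75th percentile of the array (log axis), with blue for 0 min, red for 90 min, filled circles for replicate 1 and open squares for replicate 2. Both red marks lie to the left of both blue marks for all 38 genes, with the narrowest separation for UTP22.

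The box C/D snoRNP proteins, which load on U3 and on the snoRNAs that guide rRNA methylation, all fell. NOP58, a scaffold protein of these particles, gave signals of 2.09 and 2.03 at 0 min and 1.13 and 1.17 at 90 min. Both later arrays lay at little more than 1.1, and the fall was 1.79-fold (log2 change -0.84 ± 0.06 SE, n = 2 per group, limma adjusted p = 2.31e-05). NOP56, its partner scaffold, went from 3.34 and 3.38 to 2.28 and 2.20. Its groups were far apart relative to their spread, and the log2 change was -0.58 ± 0.06 (limma adjusted p = 0.000117). NOP1, the yeast fibrillarin and the methyltransferase of the particle, had 2.84 and 2.96 before and 2.20 and 2.30 after estradiol. That fall was 1.29-fold (-0.37 ± 0.06). RRP9, a protein of the U3 particle alone among these snoRNPs, had 0.674 and 0.786 at 0 min and 0.574 and 0.527 at 90 min. Its arrays at 0 min lay further apart (SD 0.16 on the log2 scale), and the log2 change was -0.40 ± 0.09.

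The UTP-A complex binds the start of the rRNA precursor and is among the first parts of the processome to arrive. All 6 of its listed members fell, with a median log2 change of -0.58. UTP9 showed signals of 1.18 and 1.31 at 0 min and 0.724 and 0.690 at 90 min. The later pair lay well under the earlier one, a 1.76-fold fall (-0.81 ± 0.07, limma adjusted p = 7.62e-05). UTP10, a large helical repeat protein, went from 1.10 and 1.03 to 0.660 and 0.593, a 1.70-fold fall (-0.77 ± 0.07). UTP8, which has also been linked to tRNA export in yeast, gave 0.835 and 0.830 before and 0.558 and 0.499 after, with a log2 change of -0.66 ± 0.07. The smaller falls of the complex were those of UTP5 (-0.50 ± 0.07), UTP4 (-0.48 ± 0.05) and UTP15 (-0.41 ± 0.07). For UTP4 the replicates nearly coincided, at 1.45 and 1.47 before and 1.05 on both arrays after.

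The UTP-B complex, which follows UTP-A and contacts both the precursor and U3, also had all 6 listed members lower, with a median of -0.60. UTP6 gave 1.19 and 1.23 at 0 min against 0.690 and 0.712 at 90 min. Neither pair spread by more than a few hundredths, and the fall was 1.73-fold (-0.79 ± 0.06, limma adjusted p = 3.01e-05). UTP18, a subunit known to recruit the RNA exosome through its helicase, went from 0.480 and 0.502 to 0.314 on both arrays, a log2 change of -0.64 ± 0.06. The β-propeller proteins UTP21, UTP13, DIP2 and PWP2, which form the body of the complex, had log2 changes of -0.62 ± 0.06, -0.57 ± 0.07, -0.50 ± 0.09 and -0.45 ± 0.07. DIP2 was the member of the complex with the widest spread at 90 min, with signals of 0.867 and 0.725 after 1.12 on both arrays at 0 min.

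Within the Mpp10 complex, which holds the U3 pairing in place, the 3 genes fell by similar amounts. MPP10 went from 0.236 and 0.235 to 0.169 and 0.163, a 1.42-fold fall (-0.51 ± 0.06, limma adjusted p = 0.000218). IMP3 had a log2 change of -0.45 ± 0.07 and IMP4 one of -0.36 ± 0.08. IMP4 signals at 0 min, 0.549 and 0.640, lay further apart than those at 90 min, 0.457 and 0.466.

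Among the scaffold and single factors of the processome, 9 of 10 fell and 1 did not pass. UTP20, a very large helical repeat protein, gave 0.800 and 0.769 before and 0.525 and 0.454 after (log2 change -0.68 ± 0.08), and ENP2 went from 0.490 and 0.486 to 0.319 and 0.289 (-0.68 ± 0.07). Each fell 1.61-fold, with both later arrays clearly lower. RRP5, which is needed for both ribosomal subunits, had the largest spread of the list. Its signals were 1.01 and 0.889 at 0 min and 0.695 and 0.550 at 90 min, with an SD of 0.24 at 90 min, and the change was -0.62 ± 0.12. BFR2 showed a similar spread at 90 min (0.205 and 0.165, after 0.275 and 0.276), and its change was -0.58 ± 0.10. NOC4 and EMG1, which associate with NOP14, changed by -0.56 ± 0.08 and -0.44 ± 0.07. EMG1 encodes the methyltransferase that modifies a pseudouridine of 18S rRNA, and its signals went from 2.12 and 2.34 to 1.61 and 1.69. NOP14 itself changed less, by -0.25 ± 0.06, with 0.273 and 0.289 before and 0.237 and 0.234 after. UTP7, a β-propeller protein, changed by -0.30 ± 0.07 and SOF1, another one, by -0.31 ± 0.08. The SOF1 call was lost without replicate 2 at 0 min (limma adjusted p = 0.0747) or without replicate 2 at 90 min (0.0578).

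UTP22 was the member that moved least. It belongs to the UTP-C complex and, in yeast, also to a complex that holds Ifh1, an activator of ribosomal protein genes. Its signals were 1.07 on both arrays at 0 min, and 1.07 and 0.983 at 90 min. The first array at 90 min lay just under the 0 min pair and the second lower, and the log2 change was -0.07 ± 0.06 (limma adjusted p = 0.374). With no scaling between arrays the change was -0.26 and passed (limma adjusted p = 0.0187), as it did with scaling on spike-in probes, at -0.52. The median of all genes was -0.32 and -0.58 in those 2 settings, lower than the change of UTP22 in each.

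The enzymes of the processome and the KRR1 pair fell too. DBP8, a DEAD-box RNA helicase, went from 1.07 and 1.24 to 0.734 and 0.712, a 1.59-fold fall (-0.67 ± 0.08, limma adjusted p = 0.000365). KRR1, a KH-domain protein that binds the precursor, changed by -0.49 ± 0.06 and its partner KRI1 by -0.35 ± 0.07. BMS1, the GTPase of the processome, had signals of 0.519 and 0.474 at 0 min and 0.425 and 0.373 at 90 min. The gap between its groups was about as wide as the gap within them, and its log2 change was -0.32 ± 0.08. Without replicate 1 at 0 min or without replicate 2 at 90 min the BMS1 call was lost (limma adjusted p = 0.0755 and 0.056).

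The factors that act on the pre-40S particle and its export held both the largest and one of the smallest changes. RRP12, a helical repeat protein needed for export of the subunits, gave 2.02 and 1.87 at 0 min and 0.968 and 0.956 at 90 min. Both later arrays were thus at about the same level, and the fall was 2.02-fold (-1.01 ± 0.06, limma adjusted p = 1.51e-05). LTV1, a factor of the pre-40S particle, went from 0.407 and 0.423 to 0.258 and 0.240, a 1.67-fold fall (-0.74 ± 0.06). TSR1, a GTPase-like protein of the pre-40S particle, fell from 0.877 and 0.864 to 0.586 and 0.581 (-0.58 ± 0.05), and DIM1, the dimethyltransferase of 18S rRNA, from 1.41 and 1.44 to 1.08 and 1.05 (-0.42 ± 0.06). ENP1, which is present both in the processome and in the exported pre-40S particle, gave 0.732 and 0.766 before and 0.698 and 0.664 after. Its groups did not overlap, but the log2 change of -0.14 ± 0.06 did not pass (limma adjusted p = 0.0737). It did pass with no scaling between arrays (-0.33, limma adjusted p = 0.00277) and with spike-in scaling (-0.59). Those values lay close to the median of all genes, which was -0.32 and -0.58 in the same settings.

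**Figure D2:**
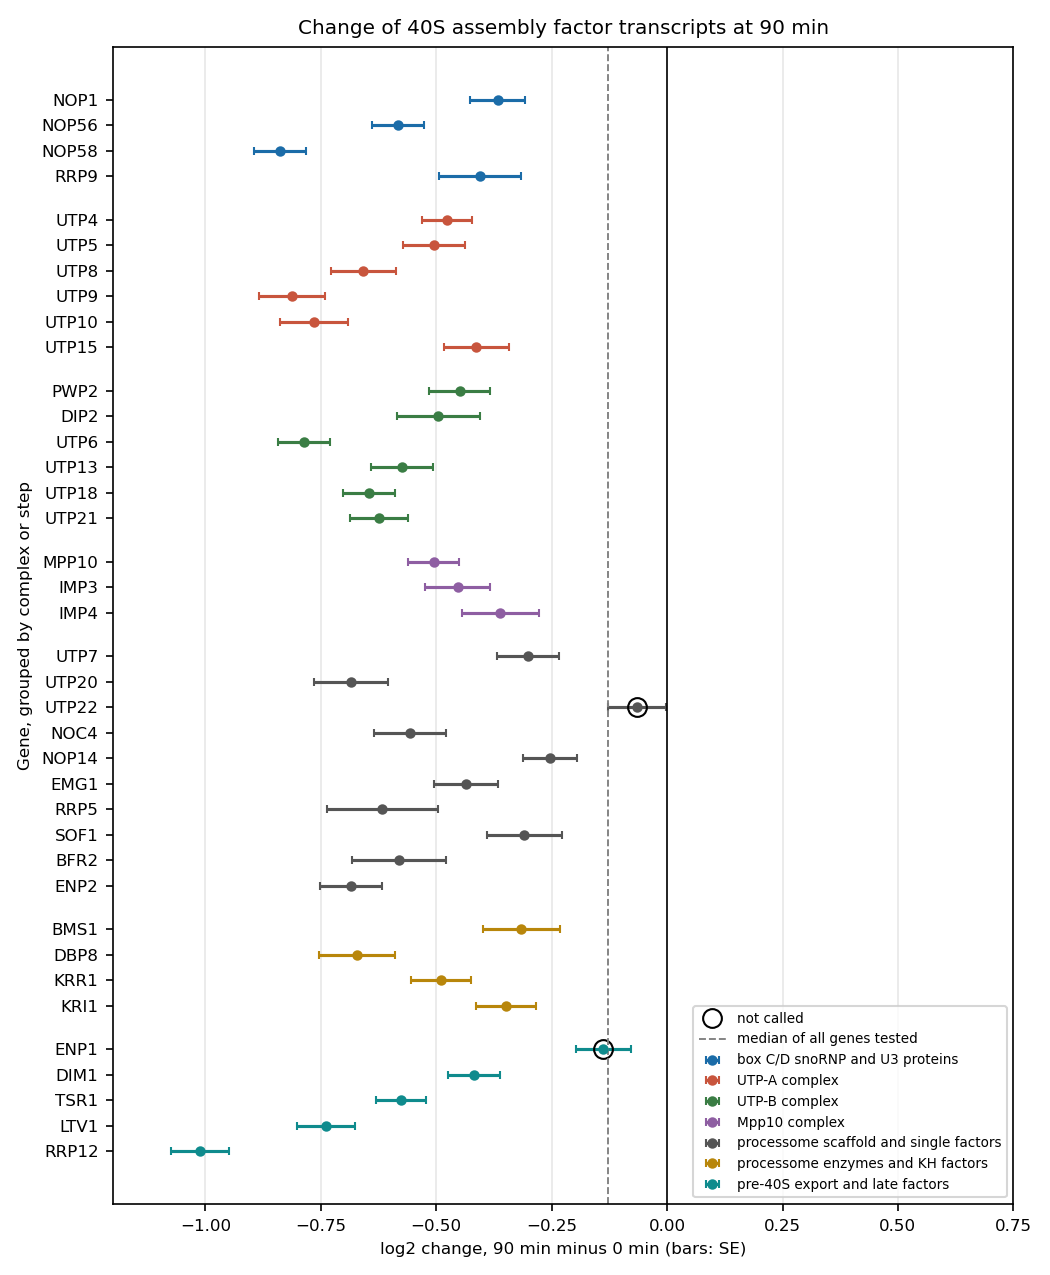
Log2 change of each assembly factor transcript, 90 min minus 0 min, with bars for the standard error, colours for the complex or step, black rings for the 2 genes that did not pass, and a dashed line at the median of all genes tested (-0.13). All 38 points lie below 0, from -1.01 for RRP12 to -0.07 for UTP22.

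The calls of 34 of the 38 genes held under all 14 alternative settings tried, the exceptions being SOF1, BMS1, UTP22 and ENP1. Scaling mattered more for size. With no scaling between arrays the median of all genes moved by -0.19 on the log2 scale, and with scaling on spike-in probes by -0.45. The median of the 38 was then -0.70 and -0.96, and all 38 passed as lower. On the spike-in scale the median fall of the 38 was 1.94-fold. Among all 6144 genes, 3532 passed as lower without scaling and 4090 on the spike-in scale, where 2840 did in the main setting. Measured against the array's 75th percentile, the spike-in probes lay at -0.59 and -0.35 (log2) on the arrays at 0 min and closer together, at 0.0045 and -0.04, at 90 min, so the size on that scale is less certain. Between single arrays the median of the 38 changed by -0.46 to -0.58 over the 4 combinations of a 0 min and a 90 min array. The median of all genes changed by -0.11 to -0.13. That all 38 were lower in each combination follows from the separation of the groups given above and is no further check. The arrays of a group also differed slightly for this list. At 90 min 30 of the 38 were lower on replicate 2 than on replicate 1, against 53.2% of all genes, with a median gap of -0.06. At 0 min 26 of the 38 were higher on replicate 2, against 49.2% of all genes.

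**Figure D3:**
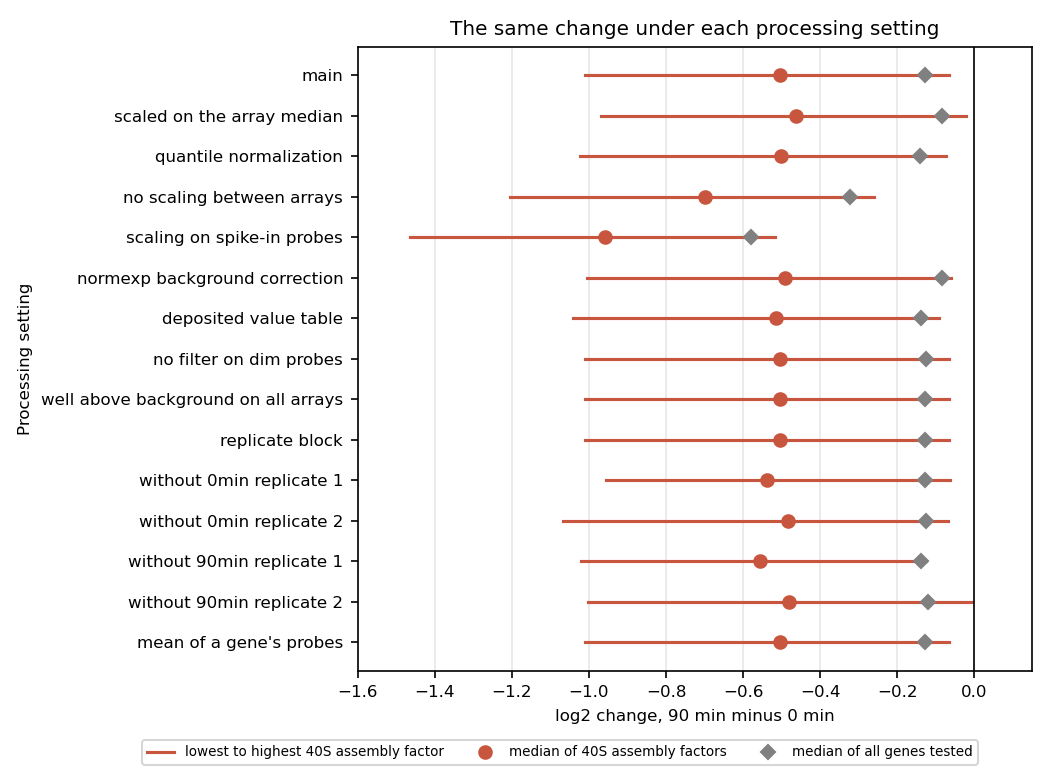
Lowest, median and highest log2 change of the 38 assembly factor transcripts (red line and circle) and median change of all genes tested (grey diamond) under the main processing and each alternative. The red median lies to the left of the grey diamond throughout, at -0.96 against -0.58 with spike-in scaling and at -0.51 against -0.13 in the main setting.

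Of 36 other processome genes, 32 fell, 1 rose and 3 did not pass, with a median log2 change of -0.50. NSR1, the yeast nucleolin, went from 5.24 and 5.43 to 2.68 and 2.52, a 2.06-fold fall (-1.04 ± 0.06, limma adjusted p = 1.22e-05). UTP11 changed by -0.91 ± 0.05 and the RNA helicase gene DHR2 by -0.78 ± 0.10. SGD1, an essential nucleolar protein, was the one gene that rose, from 0.155 and 0.138 to 0.216 and 0.180 (0.43 ± 0.10, limma adjusted p = 0.008). That rise did not pass without replicate 2 at 0 min (0.34, adjusted p = 0.053), and the change was -0.026 with spike-in scaling. ESF2 (-0.14 ± 0.06), MRD1 (-0.15 ± 0.06) and NAN1 (-0.10 ± 0.06) did not pass. Each passed as lower without scaling and on the spike-in scale, where the median of all genes was -0.32 and -0.58. NAN1 and MRD1 also passed with the deposited values, NAN1 with normexp and MRD1 with the replicate block. NAN1 encodes a further UTP-A subunit, so 1 of the 7 measured UTP-A genes did not pass.

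Of 14 late 40S factors outside the list, 10 fell, 2 rose and 2 did not pass, with a median of -0.30. TSR2, an escort of the ribosomal protein Rps26, changed by -0.70 ± 0.06, PNO1, a KH-domain partner of the endonuclease Nob1, by -0.56 ± 0.08, and the ATPase gene FAP7 by -0.50 ± 0.05. BUD23, an 18S rRNA methyltransferase, rose from 0.533 and 0.515 to 0.675 and 0.679 (0.37 ± 0.06), and RIO1, a kinase-like ATPase of the last steps, rose by 0.29 ± 0.08. With spike-in scaling those changes were -0.083 and -0.16, and with no scaling between arrays neither rise passed. Without any one of replicate 1 at 0 min, replicate 2 at 0 min or replicate 1 at 90 min, the RIO1 rise did not pass (adjusted p = 0.058, 0.0516 and 0.0525). TRM112, the partner of Bud23 (-0.23 ± 0.11), and SQS1, a cofactor of the helicase Prp43 (-0.018 ± 0.08), did not pass. SQS1 passed as lower on the spike-in scale (-0.47, limma adjusted p = 0.00474). TRM112 passed as lower in 6 alternatives, which were normexp, the deposited values, the replicate block (adjusted p = 0.0157), no scaling, spike-in scaling and leaving out replicate 1 at 0 min (-0.39, adjusted p = 0.0112). Among the H/ACA snoRNP proteins, which serve pseudouridylation in the way box C/D proteins serve methylation, CBF5 (-0.66 ± 0.07), NHP2 (-0.63 ± 0.08) and GAR1 (-0.57 ± 0.06) fell, and NOP10 (-0.081 ± 0.10) did not pass. NOP10 passed as lower without scaling, on the spike-in scale and without replicate 1 at 90 min (-0.22, adjusted p = 0.0355).

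Factors of the other subunit and the ribosomal proteins of the same subunit were measured on the same arrays. Of 55 genes for 60S assembly, 53 fell and 1 rose, with a median of -0.56. RPF1, a Brix-domain protein of the 60S precursor, REA1, the giant ATPase of 60S maturation, and the helicase gene DBP2 led the falls, at -1.13 ± 0.06, -0.98 ± 0.08 and -0.96 ± 0.06. SPB4, also a helicase gene, rose from 0.296 and 0.274 to 0.536 and 0.512 (0.88 ± 0.06), and NSA1 (0.11 ± 0.08) did not pass. On the spike-in scale NSA1 passed as lower (-0.35, limma adjusted p = 0.0384). For the 40S ribosomal protein genes 48 of 56 fell, 0 rose and 8 did not pass, with a median of -0.36. RPS25B (-0.73 ± 0.06), RPS7B (-0.71 ± 0.06) and RPS28B (-0.68 ± 0.06) changed most. Many of these genes exist as near-identical pairs whose probes may share signal, so single values are uncertain. Whether the medians of these lists differ from that of the 38 was not tested.

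**Figure D4:**
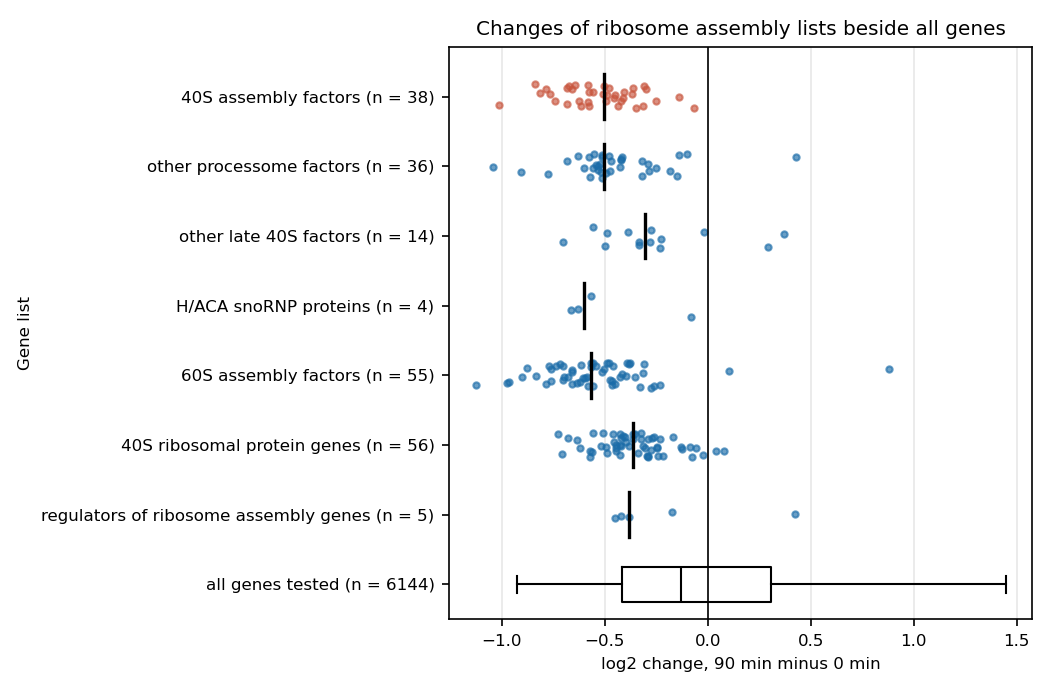
Log2 changes of the genes of each list (points, with a black bar at the median) and of all genes tested (box from the 25th to the 75th percentile, whiskers from the 5th to the 95th). The 38 assembly factors have a median of -0.51, the other processome factors -0.50, the 60S assembly factors -0.56 and the 40S ribosomal protein genes -0.36.

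The transcripts of all 5 listed regulators of ribosome assembly genes passed, 4 as lower and 1 as higher. Of all genes tested, 46.2% fell and 30.3% rose, so a call alone does not set these regulators apart. Their directions were mixed, since the activator SFP1 and the repressors TOD6 and STB3 fell while the repressor DOT6 rose. Whether these transcript changes act on the assembly factor genes was not tested. SFP1, an activator of ribosome biogenesis genes, went from 0.250 and 0.261 to 0.188 and 0.186 (-0.45 ± 0.06, limma adjusted p = 0.000396), and SCH9, a kinase downstream of TOR complex signalling, changed by -0.42 ± 0.06. DOT6, a repressor that binds the PAC motif of these promoters, rose from 2.64 and 2.83 to 3.64 and 3.68 (0.42 ± 0.06, limma adjusted p = 0.000783). TOD6, its paralog, changed by -0.38 ± 0.10, a call lost without replicate 2 at 0 min (adjusted p = 0.0574). The change of DOT6 was -0.030 with spike-in scaling. STB3, a repressor that binds the RRPE motif, had a log2 change of -0.17 ± 0.06 (limma adjusted p = 0.0289). That call was lost with median scaling, quantile normalization and the deposited values (limma adjusted p = 0.0873, 0.0822 and 0.072). It was also lost when any one of the 4 arrays was left out (-0.14 to -0.20). MSN2 itself was higher at 90 min, with signals of 0.0378 and 0.0324 after 0.0065 and 0.00611 (2.47 ± 0.09, limma adjusted p = 1.34e-06), the direction that the labels give. Whether its probe tells the inducible allele from the native gene was not tested.

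A few of the genes lie beside another ribosome assembly gene. In the RefSeq annotation of the R64 assembly, 4 of the 38 have an adjacent protein-coding gene among the 147 assembly genes listed here, a share of 10.5%, where 4.65% of the 5874 genes outside those lists do. DBP8 lies in tandem with the 60S export adaptor gene NMD3 (-0.67 ± 0.08 and -0.76 ± 0.05), and UTP9 with the 60S factor gene RIX1 (-0.81 ± 0.07 and -0.76 ± 0.06). UTP13 lies in tandem with the 60S factor gene RSA3 (-0.57 ± 0.07 and -0.31 ± 0.05), and NOC4 converges with RRP15 (-0.56 ± 0.08 and -0.26 ± 0.08). Both genes of each pair fell, but so did 36 of the 38 and 53 of the 55 60S assembly genes. The falls therefore do not set adjacent genes apart. These pairs were found after the values were seen.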

How the data were processed

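Total RNA of 4 samples was labelled with Cy3 and hybridised to 4 Agilent yeast arrays on 1 slide, scanned on 1 day. The deposited scanner files hold spot intensity from Agilent Feature Extraction 10.7.3.1, background-subtracted and detrended, per the file headers. The deposited value table holds log2 values (column medians 11.65 to 11.67), and since the only tool given in the submitters' processing notes is limma, its background treatment and normalization are unknown. Against the scanner signals its columns correlated at 0.996 to 0.997 over probes.

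Each of 6256 yeast probes has 2 spots. From each log2 processed signal the array's 75th percentile over yeast spots was subtracted, and duplicate spots were averaged without the 3 to 10 outlier spots per array. Probes were tested if well above background on both arrays of a group (6175 kept, 81 removed). Names came from RefSeq by locus tag (5748) or accession (17), and 491 kept the file's name. The array design names sacCer2 and the gene table R64, so no positions are given. A gene's brightest probe stood for it, and each of the 38 genes had 1 probe. Per array, 6151 to 6191 probes were well above background and 0 spots were saturated. Precision is limited by having 2 arrays per group.

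The comparison of the groups used R 4.3.3 and limma 3.58.1 (two-sided, Benjamini-Hochberg over probes, threshold 0.05). The series describes biological replicates. The procedure was tested on simulated data, but the outcome is not given here and is no support for the calls. Members and lists were chosen with earlier results of these data known. All members are named, and of other lists the 3 largest called falls, the 2 largest called rises, and every gene of lists of 5 or fewer. Genes without a call and adjacent genes were chosen with their values already seen. Alternatives were median, quantile, spike-in or no scaling, normexp with an offset of 50 on median signal, the deposited table, dim probes kept, detection required on all arrays, the replicate number as a block, each array left out, the mean of a gene's probes, and a threshold of 0.01. A planned search for promoter motifs was not run. Figures were drawn with matplotlib 3.10.9 in Python 3.11.15.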

Additional observations from a re-analysis of the deposited data

How the results depend on the processing

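The count of assembly factors that fell was 36, and 34 to 38 across the alternatives, with 0 rising in each (limma; 34 at an adjusted p under 0.01). Leaving out single arrays gave 34 to 36 fallen and a median log2 change of -0.56 to -0.48. Without scaling that median was -0.70, and on the spike-in scale -0.96. In the main setting 1860 of all genes rose and 2840 fell, without scaling 1288 rose and 3532 fell, and on the spike-in scale 745 rose and 4090 fell. Counts for the other lists stayed within 1.5 times. Of 966 pairs of a named gene and an alternative, 914 kept direction and side of the threshold, 18 lost the call, 24 gained one and 10 reversed. With spike-in scaling the log2 changes of SGD1 (-0.026), BUD23 (-0.083), RIO1 (-0.16), DOT6 (-0.030) and NSA1 (-0.35) were below 0, as was that of NSA1 without scaling (-0.088). SQS1 was at 0.026 with median scaling. Leaving out single arrays, SQS1 ran from -0.11 to 0.075 and NOP10 from -0.22 to 0.061. SQS1, NOP10 and NSA1 did not pass in the main setting. On the spike-in scale each passed as lower, with SQS1 at -0.47 (limma adjusted p = 0.00474), NOP10 at -0.53 (0.00133) and NSA1 at -0.35 (0.0384). The median of all genes on that scale was -0.58. Each of these scalings moves all genes of an array by 1 offset. For the other changes the cause was not tested. Deviations of same-numbered samples correlated at 0.20 over all probes and 0.42 over the 38 genes, but the sources do not say what a number marks. With a replicate block 36 of the 38 fell, as without it, and 4926 genes were called in place of 4700. The planned search for promoter motifs has no value because no promoter sequence was used here.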
